A study of Mus musculus with 44 samples.

Results

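The translation initiation and elongation factors were taken as the protein-coding genes of GENCODE release M21 whose symbols begin with Eif1 to Eif6, Eef1 or Eef2, without the Eif2ak kinases, Eif4enif1 and the Y-linked Eif2s3y. The rule gave 62 genes of the 50714 identifiers that all count tables shared. RNA had been measured in 44 libraries from mouse dorsal cortex and hippocampus, taken when the mice were 28 to 29 days old. All mice, controls included, carried CX3CR1-CreERT2 (+/-) and RPL10a-GFP flox (+/-) per the labels, whereas the series design writes fl/fl for the tagged ribosomal allele. In such mice tamoxifen activates a Cre driven by the promoter of Cx3cr1, which microglia and other macrophages of the brain and its borders use, and the Cre switches on a GFP-tagged ribosomal protein. Tamoxifen mice received 100 mg/kg on postnatal days 15, 17 and 19. Control mice were given vehicle per the labels and are named untreated in the series design.

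Every letter in the titles stands for 4 libraries. The Input libraries hold total RNA from homogenate, and MG_TRAP holds RNA pulled down from homogenate with the tagged ribosomes (translating ribosome affinity purification). SN_input was total RNA of a synaptosome preparation, which holds pinched-off synapses together with fine cell processes. The pull-down from that preparation gave PeMP_TRAP, which some titles name SN_TRAP; both names were taken as one fraction. Replicates A to C were controls and D to K were tamoxifen mice. The titles and files come in different styles, by which the libraries were split into the first set (letters A to F, 24 libraries) and the second set (letters G to K, 20 libraries), so controls existed only in the first set. The labels do not say that the letters are separate animals, so p-values measure the spread between libraries.

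Translation begins when eIF2 brings the initiator tRNA to the small ribosomal subunit with eIF1, eIF1A, eIF3 and eIF5, and the eIF4 factors load this complex onto the capped mRNA. eEF1A then delivers each aminoacyl-tRNA, the eEF1B subunits recharge eEF1A with GTP, and eEF2 moves the ribosome along by a codon. Many mRNAs for ribosomal proteins and elongation factors start with a 5′ terminal oligopyrimidine (TOP) tract, through which mTOR signalling and the 4E-BP and LARP1 proteins set their translation. Of the 62 genes, 9 were listed as TOP mRNAs from general knowledge of these genes: Eef1a1, Eef1b2, Eef1d, Eef1g, Eef2, Eif3e, Eif3f, Eif3h and Eif4b. The list was made with earlier results of these data known.

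These 9 genes carry much of what follows, so the start regions of those with a RefSeq window (GRCm38.p6) are shown to let the pyrimidine tract be seen. Each line gives 30 bases of the gene's strand, 10 before the annotated start and 20 from it on. Capitals mark a run of at least 5 C or T bases that opens with C and begins within 5 bases of the start.
Eef1a1, chr9:78481705-78481734, minus strand: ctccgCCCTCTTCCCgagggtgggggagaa
Eif3f, chr7:108934405-108934434, plus strand: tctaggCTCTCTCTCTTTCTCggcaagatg
Eef1b2, chr1:63176821-63176850, plus strand: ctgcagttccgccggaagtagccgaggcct
Eef2, chr10:81176621-81176650, plus strand: aaggccgggcgttgacgtcagcggtctctt
Eif4b, chr15:102073763-102073792, plus strand: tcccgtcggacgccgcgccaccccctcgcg
The run in Eif3f was 15 bases long and that in Eef1a1 10 bases. Among the other members, whose windows are not shown, the longest runs were 12 bases in Eif2s3x and 9 bases in Eif3l. Runs by this rule were present in 2 of the 5 TOP windows, in 7 of the 52 windows of the other members, and in 18.3% of 32851 mouse promoter windows. On the opposite strand such runs were in 2 of 5, 11 of 52 and 20.5% of these windows, so the count in TOP windows was the same on both strands. Windows existed for 46 of the 62 members. The windows of Eef1b2, Eef2 and Eif4b held no such run, which says only that these letters do not occur at the annotated start.

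The libraries held 740679 to 35427238 reads on the shared genes. The 5 PeMP_TRAP libraries of the second set stood apart. They detected 5372 to 7369 genes from at least 20352794 reads each, against 11694 to 13096 genes in the PeMP_TRAP libraries of tamoxifen mice in the first set. An estimate from the genes detected gave 16310 to 31250 molecule equivalents in each of them, so that 1134 to 1664 reads came from each. The comparisons of PeMP_TRAP between fractions are therefore also given for the first set alone. Low for their groups were also MG_TRAP of J and K, with 183200 and 210600 molecule equivalents against 944400 to 1043000 in G to I. SN_input of D had 73340 and detected 10023 genes. Exons of 14 members overlap another gene on the same strand and those of 16 on the other strand, so reads there can be shared or lost. Among them, exons of Eef1b2 and Eif5b overlap Ndufs1 and Rev1 on the opposite strand and exons of Eef1d overlap Naprt. Microglial markers (8 genes, among them Cx3cr1, P2ry12 and Tmem119) summed to 8170 to 23256 CPM (reads scaled to a common library total) in MG_TRAP and 4764 to 19577 CPM in PeMP_TRAP of tamoxifen mice, against 97.9 to 254 CPM in Input and 324 to 1108 CPM in SN_input. In the controls the same sum was 118 to 194 CPM in Input, 1086 to 4136 CPM in MG_TRAP and 282 to 3444 CPM in PeMP_TRAP. Markers of neurons (8 genes) summed to 1572 to 7560 CPM in MG_TRAP and 721 to 4223 CPM in PeMP_TRAP of tamoxifen mice, and Gad1 and Gad2 were at 0 in all PeMP_TRAP libraries of the second set. Markers of oligodendrocytes (6 genes) summed to 351 to 14260 CPM in MG_TRAP and 671 to 5928 CPM in PeMP_TRAP of tamoxifen mice, and those of plasma and B cells were called higher in both pull-downs for 4 of 5 genes. Between PeMP_TRAP and SN_input 7 of 8 neuronal, 4 of 6 astrocyte, 6 of 6 oligodendrocyte and 3 of 5 endothelial markers were called lower. The part of other cells in the values below was not tested, and in bulk samples fewer cells of a type and less RNA per cell cannot be told apart.

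The factors took up a small and variable share of the reads. In tamoxifen mice of the second set, Input had 1.03% to 1.07% of its reads on them, MG_TRAP 1.19% to 1.37%, SN_input 0.688% to 0.794% and PeMP_TRAP 1.25% to 2.14%. In the first set the shares were 0.576% to 0.681%, 0.638% to 0.842%, 0.188% to 0.516% and 0.505% to 1.54%. In both sets PeMP_TRAP was the fraction with the highest single library, and it overlapped MG_TRAP. In control PeMP_TRAP the share was 0.244% to 0.620%, below the 0.676% to 0.716% of control Input. Its own input, control SN_input, had 0.305% to 0.483%, with a median of 0.481% against 0.585% in control PeMP_TRAP, and the groups overlapped.

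Within the reads on factors, the 9 TOP members held their largest share in PeMP_TRAP of tamoxifen mice. In the first set Input had 12.9% to 15.5% of its factor reads on them, MG_TRAP 17.1% to 27.4%, SN_input 18.9% to 24.4% and PeMP_TRAP 27.6% to 49.0%. In the second set the values were 31.6% to 34.8%, 45.2% to 47.7%, 40.0% to 41.9% and 49.4% to 62.1%. Within each set, every PeMP_TRAP library of tamoxifen mice lay above every library of the other 3 fractions. In control mice PeMP_TRAP, at 16% to 21.6%, lay no higher than SN_input at 19.5% to 24%. These shares do not depend on how libraries are scaled. Much of the gap between the sets was Eef1a1, which took 0.949% to 2.58% of factor reads in Input of the first set and 13% to 16.1% in the second.

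**Figure D1:**
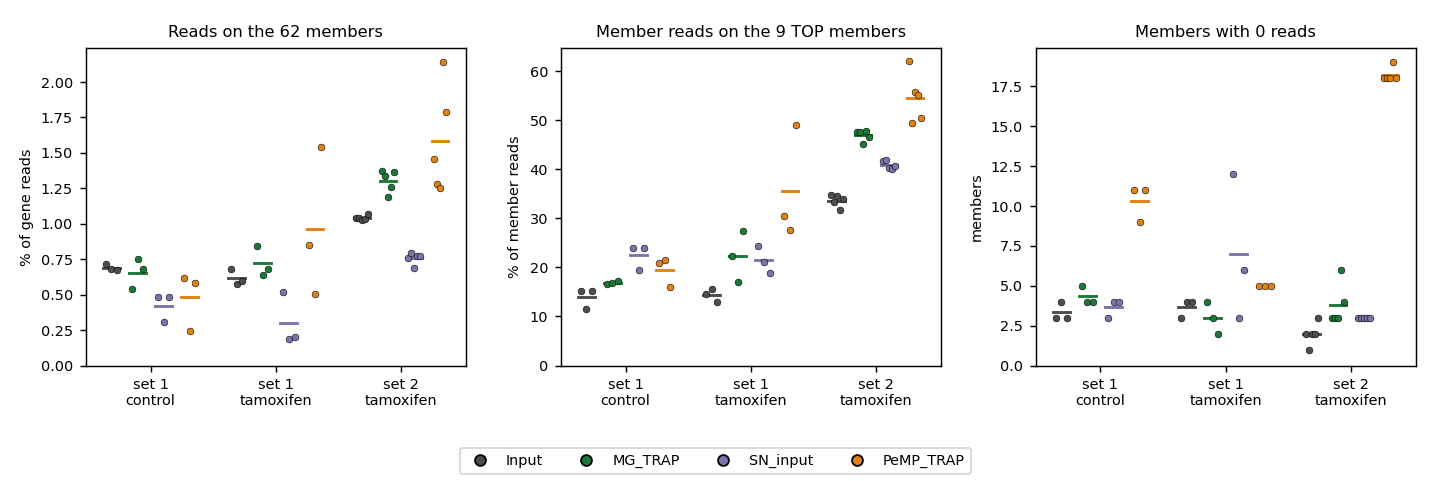
Share of the reads on translation factors that fell on the 9 TOP members, by library, fraction, treatment and set, in percent. In tamoxifen mice PeMP_TRAP lay highest in each set (27.6% to 49.0% in the first, 49.4% to 62.1% in the second), whereas control PeMP_TRAP lay at 16% to 21.6%.

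The levels per kilobase of exon placed a few factors far above the rest. In Input of the second set (n = 5) the highest on the log2 CPM per kilobase scale were Eef1a1 (8.66 ± 0.13 SD), Eif1 (8.37 ± 0.07), Eif5a (7.67 ± 0.02), Eef2 (7.50 ± 0.04) and Eif1b (6.46 ± 0.06). In Input of the first set tamoxifen mice (n = 3) the order was Eif1b (7.54 ± 0.71), Eif5a (6.63 ± 0.97) and Eef2 (6.28 ± 0.17), neighbours that did not differ beyond their spread. In PeMP_TRAP of the second set Eef1a1 (10.68 ± 0.30) led, followed by Eef2 (9.53 ± 0.31) and Eif1 (9.17 ± 0.25), of which the last pair lay within their spread of each other. Eef1a1, Eif1 and Eif4a1 were counted at different levels in the sets. In Input their log2 differences, second minus first set, were 3.81, 2.37 and 2.93, and that of Eif5b was -2.29, all past the test, where 0.635% of 17961 genes rose and 2.12% fell. The call of Eif5b was lost when any of E to K was left out. The genome holds near-identical copies of Eef1a1, Eif1 and Eif4a1 among its pseudogenes, so their levels are uncertain. Comparisons of fractions below therefore carry the set as a term.

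Differences between fractions are given as log2 fold changes with their standard error from edgeR's quasi-likelihood test over all genes, and adjusted p-values are Benjamini-Hochberg values over all genes tested, with a threshold of 0.05. Libraries were scaled by TMM. DESeq2's size factors in its place moved the median of all genes by -0.51 (MG_TRAP against Input), -0.29 (PeMP_TRAP against SN_input), -0.46 (PeMP_TRAP against MG_TRAP) and -0.71 (SN_input against Input), and total counts by -0.30, 0.07, -0.66 and -1.02. Of the 62 factors, 59 passed the filter on low counts. Eef1akmt3, Eif4e1b and Eif4ebp3 did not and were not tested.

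The synaptosomal pull-down was compared with its own input. Between PeMP_TRAP and SN_input of tamoxifen mice, 17 factors rose and none fell, and at an unadjusted p under 0.05, 21 were higher and 2 lower. DESeq2 called 14 higher and 4 lower and limma voom 3 higher and 15 lower, where 32.4% and 49.1% of all genes fell in those fits. Molecule equivalents, a setting chosen after seeing the data, gave 9 higher and 5 lower, and 9 were higher without the filter. Shares of all genes that rose are not given for these alternatives or the unadjusted counts, so those counts stand without a background. In the fit as reported, 6.15% of the 15710 genes tested rose and 26.1% fell. Factors are abundant genes, and among the 2918 genes with an average log2 CPM of at least 6 the shares were 15.8% and 15%. The median log2 fold change was 0.92 over the 59 factors, -0.75 over all genes and -0.03 over the abundant genes. Of the 9 TOP members 8 rose, with a median of 1.74, and of the other 50 factors tested 9 rose. All 9 had positive values under every setting tried.

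Among the elongation factors, Eef2, the translocase, had log2 CPM of 9.55, 8.53 and 8.81 in SN_input of replicates D to F and 10.16, 10.07, 9.91, 9.78 and 9.90 in G to K. In PeMP_TRAP it had 11.56, 9.55 and 11.94 in D to F and 11.51, 10.88, 10.98, 11.54 and 11.40 in G to K. The groups touched only in the first set, through the lowest PeMP_TRAP library, and the fold change was 1.74 ± 0.30 (adjusted p = 7.33e-05). Eef1b2, a subunit of the exchange factor that recharges eEF1A, had 7.84, 7.28 and 6.82 in SN_input of D to F and 7.89, 7.84, 7.93, 8.0 and 7.97 in G to K. Its PeMP_TRAP values were 9.19, 8.79 and 10.12, then 9.15, 8.99, 8.21, 9.44 and 8.88. No PeMP_TRAP library of either set overlapped SN_input, and the fold change was 1.46 ± 0.38 (adjusted p = 0.00346).

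Eef1d, another subunit of it, had 7.78, 6.04 and 5.86 in SN_input of D to F and 6.74 to 7.14 in G to K, against 9.05, 7.90 and 9.07 and then 8.56, 6.71, 9.87, 8.81 and 8.31 in PeMP_TRAP. Replicate H alone brought the groups of the second set into overlap, and the fold change was 1.87 ± 0.44 (adjusted p = 0.00125). Eef1a1, which delivers aminoacyl-tRNA, rose by 2.06 ± 0.39 (adjusted p = 1.85e-04), and Eef1g, its structural subunit, by 1.5 ± 0.54 (adjusted p = 0.0314). Eef1a2, the form of eEF1A typical of neurons and muscle, was at -2.04 ± 0.85 (adjusted p = 0.0611) and did not pass. Eef1e1, which in spite of its name belongs to the multi-synthetase complex, was at -0.37 ± 1.2 and read in 1 of the 5 PeMP_TRAP libraries of the second set.

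All 14 genes of eIF3, the scaffold that holds the initiation complex on the small subunit, had positive fold changes under each scaling, 12 with limma voom, and 7 passed. Eif3j1 and Eif3j2 encode the same subunit. The median was 1.21. Eif3h had 4.84, 6.21 and 5.96 in SN_input of D to F and 7.15, 7.47, 7.39, 7.12 and 7.42 in G to K. In PeMP_TRAP it had 9.17, 6.48 and 8.43 in D to F and 8.63, 8.40, 9.68, 9.10 and 9.72 in G to K. Every PeMP_TRAP library lay above every SN_input library of its set, and the fold change was 2.14 ± 0.42 (adjusted p = 2.74e-04). Eif3g rose by 2.13 ± 0.51 (adjusted p = 0.00161) although replicate I, at 4.03, lay under all SN_input values. Eif3f rose by 1.51 ± 0.46, Eif3k by 1.31 ± 0.42, Eif3a by 1.26 ± 0.44 and Eif3c by 1.06 ± 0.42. The seventh, Eif3j2, was called at 3.50 ± 1.30, but this rested on 1 library: PeMP_TRAP of replicate I had 5.49 and the others of its set -2.36 to -0.66, and without I the value was -0.79. Eif3e, the TOP member that did not pass, was at 1.28 ± 0.67 (adjusted p = 0.145), with PeMP_TRAP libraries from -1.44 to 7.86.

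At the cap, Eif4b, which stimulates the eIF4A helicase, had 3.60, 4.75 and 4.79 in SN_input of D to F and 6.21 to 6.94 in G to K. Its PeMP_TRAP values were 6.20, 6.29 and 9.64, then 8.31, 9.18, 6.17, 7.87 and 8.37, so that replicate I alone fell below its set's SN_input values. The fold change was 2.52 ± 0.58 (adjusted p = 0.00118). Eif4b was the only factor of the 11 cap complex members tested that passed. The cap-binding protein Eif4e was at -0.52 ± 1.06, the helicase Eif4a1 at 1.12 ± 0.50 (adjusted p = 0.0802) and the scaffolds Eif4g1, Eif4g2 and Eif4g3 at 0.29 ± 0.58, 0.77 ± 0.38 and -0.12 ± 0.58.

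Eif4ebp1, which binds eIF4E and blocks its use when mTOR is inactive, had the largest called fold change in this comparison, 3.7 ± 0.86 (adjusted p = 0.00122). It had 5.66, 1.04 and 1.56 in SN_input of D to F and 1.61 to 3.46 in G to K. PeMP_TRAP gave 7.50, 4.60 and 4.96, then 7.03, 8.24, 7.89, 1.30 and 7.43, so the groups overlapped through SN_input of D in the first set, and replicate J lay below SN_input in the second. Eif4ebp1 was at 2.08 in the first set alone (adjusted p = 0.394, edgeR's quasi-likelihood test) and at 4.45 in the second (adjusted p = 2.71e-04, same test). In PeMP_TRAP of the second set 3 molecule equivalents were worth 145.8 CPM on average, far above its SN_input level there. Its PeMP_TRAP values thus rest on few molecules, and the size of the fold and its rank are uncertain. Its relative Eif4ebp2 was at -0.01 ± 0.58. Among the remaining roles, Eif5b, which joins the ribosomal subunits, rose by 1.71 ± 0.42 (adjusted p = 0.00216) and lay above SN_input in every library of both sets. Eif1, which guards start codon choice, rose by 0.88 ± 0.28 with no overlap in either set, and Eif5a, which relieves stalled ribosomes, by 1.10 ± 0.42.

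No member of the eIF2 ternary complex, of its exchange factor eIF2B or of the enzymes that modify elongation factors passed, nor did any at an unadjusted p under 0.05. Eif2s1, Eif2s2 and Eif2s3x, the eIF2 subunits, were at 1.62 ± 1.05, 0.63 ± 0.49 and 0.97 ± 0.96. Of the eIF2B subunits, Eif2b3, Eif2b4 and Eif2b5 were at 1.16 ± 1.34, 1.82 ± 1.22 and -1.66 ± 1.00. Eif2b1 and Eif2b2 read at 0 in all 5 PeMP_TRAP libraries of the second set, as did Eif5a2, Eef2kmt and Eef1akmt4. Their SN_input means there were 21.6 CPM for Eif2b1 and 27.0 CPM for Eif2b2. In a single PeMP_TRAP library there, 3 molecule equivalents were worth 145.8 CPM on average. A level like that of SN_input was thus not detectable in a single library. What 0 reads in all 5 libraries together show was not tested, and no fold is given.

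**Figure D2:**
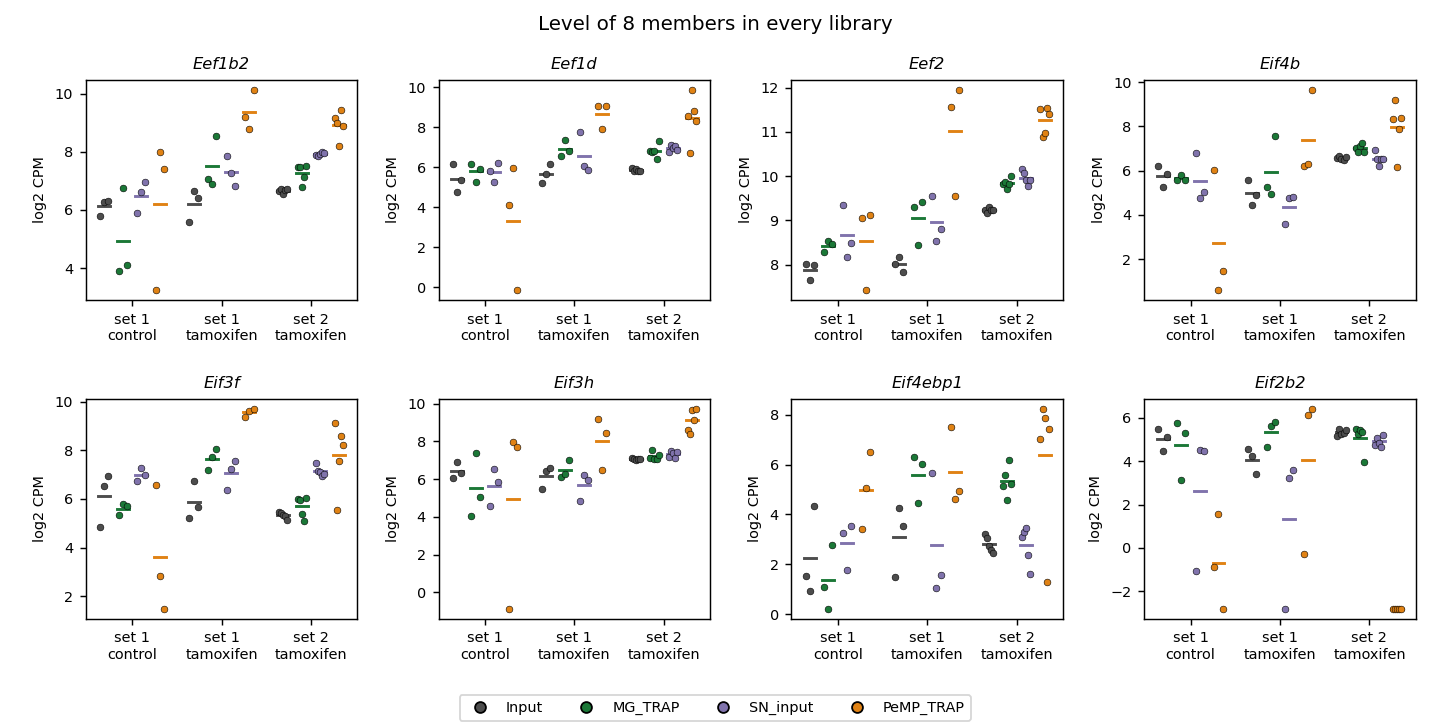
Log2 CPM of 8 factors in each library, by fraction, treatment and set, where 0 reads lie at -2.80. Eef1b2 and Eif3h show PeMP_TRAP of tamoxifen mice above SN_input in every library of both sets, Eif4ebp1 shows replicate J apart from the other PeMP_TRAP libraries of its set, and Eif2b2 shows 5 PeMP_TRAP libraries at 0 reads.

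In the first set alone, without the PeMP_TRAP libraries that stood apart, no factor passed in this comparison, where 311 of 12968 genes rose and 61 fell. The fold changes there were positive for 9 of 9 TOP members, with a median of 2.47 against 0.03 over all genes, and for 13 of 14 eIF3 genes. Those of Eef2, Eef1b2, Eif3h and Eif4b were 2.33, 2.15, 2.63 and 3.91, with adjusted p of 0.120, 0.162, 0.140 and 0.0711 by edgeR's quasi-likelihood test. In the second set alone they were 1.2, 0.95, 1.75 and 1.61, with adjusted p of 5.47e-07, 0.00475, 2.91e-05 and 0.00301 by edgeR's quasi-likelihood test. There 14 factors rose and 7 fell, where 4.26% of all genes rose and 39.3% fell. Those that fell were Eef1akmt4, Eef2kmt, Eif2a, Eif2b1, Eif2b2, Eif5 and Eif5a2. All but Eif5 and Eif2a were at 0 reads in every PeMP_TRAP library of that set, so their fall is no measured fold.

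The 2 pull-downs of tamoxifen mice, PeMP_TRAP and MG_TRAP, were compared next, with the same PeMP_TRAP libraries as above. Between them 16 factors rose and none fell, 8 of 9 TOP members and 7 of 14 eIF3 genes among them (21 higher and 1 lower at an unadjusted p under 0.05), where 3.17% of genes rose and 22% fell (9.84% and 3.77% of abundant genes). The median over the factors was 0.85, against -0.57 over all genes and 0.36 over abundant genes. All 9 TOP members had positive values in the fit as reported and 8 with limma voom and 7 with molecule equivalents. All 14 eIF3 genes did so in the fit as reported, 13 with DESeq2's size factors or total counts, 11 with limma voom and 8 of 13 with molecule equivalents. DESeq2 called 10 factors higher and 6 lower, where 29.9% of all genes were lower. Its size factors gave 8 higher and 2 lower, total counts 5 and 2, and 5 were higher without the filter. The share of all genes that rose with DESeq2, and both shares in these last fits, are not given here. The counts therefore stand without a background.

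Eef2 in MG_TRAP had 9.31, 8.43 and 9.42 in D to F and 9.83, 9.87, 9.72, 9.81 and 10.00 in G to K, all under every PeMP_TRAP value of the same set, and the fold change was 1.79 ± 0.30 (adjusted p = 8.79e-05). Eef1b2 had 7.05, 6.89 and 8.55 and then 6.80 to 7.50 in MG_TRAP, again with no overlap in either set, and rose by 1.75 ± 0.39 (adjusted p = 0.00124). Eif3f had 7.18, 7.73 and 8.04 and then 5.99, 5.98, 5.39, 5.09 and 6.05 in MG_TRAP, against 9.37, 9.61 and 9.70 and then 9.13, 5.54, 7.56, 8.60 and 8.22 in PeMP_TRAP. Only replicate H overlapped, and Eif3f had the largest called fold change among the factors, 2.20 ± 0.47 (adjusted p = 8.72e-04). Eif3h was at 1.94 ± 0.41 (adjusted p = 9.29e-04) and Eef1d at 1.90 ± 0.44 (adjusted p = 0.00173).

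Eif4ebp2 rose by 2.03 ± 0.59 (adjusted p = 0.00997), Eif3d by 1.96 ± 0.65, Eef1g by 1.66 ± 0.54, Eif5b by 1.64 ± 0.42 and Eif3k by 1.62 ± 0.43. Eif4ebp1, at 1.58 ± 0.78 (adjusted p = 0.145), and Eif3e, at 0.54 ± 0.66, did not pass. The methyltransferase and kinase genes that act on elongation factors did not pass either, with Eef2k, the kinase that inactivates eEF2, at -2.67 ± 1.24 (adjusted p = 0.117). Counts scaled to molecule equivalents left 1 factor higher and 12 lower here (1.34% and 34.9% of all genes) and turned Eef1a1 and Eif1 negative, limma voom gave 6 higher and 19 lower (2.24% and 41.9% of all genes), and without replicate G 9 were higher. Eif3g and Eif3i passed in none of the 9 other settings tried. In the first set alone no factor passed, with values of 2.26 for Eef2, 1.81 for Eef1b2, 1.92 for Eif3f, 1.88 for Eif3h and 1.85 for Eef1d, where 9 of 9 TOP members and 13 of 14 eIF3 genes were positive. In the second set alone 17 rose and 9 fell, where 4.42% of all genes rose and 38.2% fell. Among those that fell, Eef1akmt4, Eef2kmt, Eif2b1, Eif2b2 and Eif5a2 were at 0 reads in every PeMP_TRAP library of that set.

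MG_TRAP and Input of tamoxifen mice differed less for these genes. Eef1a1 and Eif4ebp1 rose and no factor fell (9 higher and 1 lower at an unadjusted p under 0.05), where 4.67% of genes rose and 2.15% fell (11.4% and 2.4% of abundant genes). No factor was called with limma voom or in the first set alone, and with molecule equivalents 11 rose and 3 fell, where 18.6% and 17.9% of all genes did. The median was 0.29 over the factors and -0.14 over all genes. Eef1a1 had 6.76, 5.87 and 5.58 in Input of D to F and 10.10, 10.02, 10.00, 9.76 and 9.98 in G to K, against 9.13, 7.02 and 8.12 and then 11.49, 11.43, 11.03, 11.33 and 11.42 in MG_TRAP. The groups did not overlap within a set, and the fold change was 1.66 ± 0.38 (adjusted p = 0.00346).

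Eif4ebp1 had 1.47, 4.24 and 3.52 and then 2.44 to 3.21 in Input, against 6.30, 4.46 and 6.04 and then 5.14, 5.6, 4.59, 6.20 and 5.24 in MG_TRAP. It rose by 2.56 ± 0.80 (adjusted p = 0.0411), a call that held when E was left out and was lost when any other letter was, although no MG_TRAP library overlapped Input of its set. All 9 TOP members had positive values (8 with DESeq2's size factors or total counts), with a median of 0.87, and Eef2 was at 0.82 ± 0.29 (adjusted p = 0.0842). The eIF3 genes had a median of 0.44 (-0.07 with DESeq2's size factors) with none called, also by DESeq2 or limma voom, and 2 higher at an unadjusted p under 0.05 by edgeR. With DESeq2's size factors the median over the factors was -0.22, so their sign as a group depended on scaling here. Of all genes called, 68.4% rose in the fit as reported, 52.9% with those size factors, and DESeq2 called 1 factor lower.

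Between the 2 inputs, SN_input and Input of tamoxifen mice, Eif3f rose by 1.67 ± 0.46 (adjusted p = 0.0364) and Eif4ebp2 by 2.87 ± 0.60 (adjusted p = 0.00287), where 2.08% of genes rose and 0.465% fell (9.66% and 0.171% of abundant genes). Eif4ebp2, the 4E-BP most abundant in brain, had 3.22, 3.30 and 5.09 and then 4.73, 4.94, 5.05, 4.81 and 4.33 in Input, against 7.71, 6.20 and 5.97 and then 7.68, 7.58, 7.78, 7.81 and 7.56 in SN_input, with no overlap. The call of Eif3f held when D was left out and was lost when any other letter was. The TOP members and eIF3 had medians of 0.87 and 0.46, but -0.12 and -0.56 with total counts. No factor fell here (6 higher and 1 lower at an unadjusted p under 0.05), DESeq2 and total counts each gave 1 lower, and molecule equivalents gave 6 lower. No factor rose with limma voom, with total counts, without the filter or in the first set alone. Of all genes called, 81.8% rose in the fit as reported, 55.1% with DESeq2's size factors and 28.8% with total counts.

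**Figure D3:**
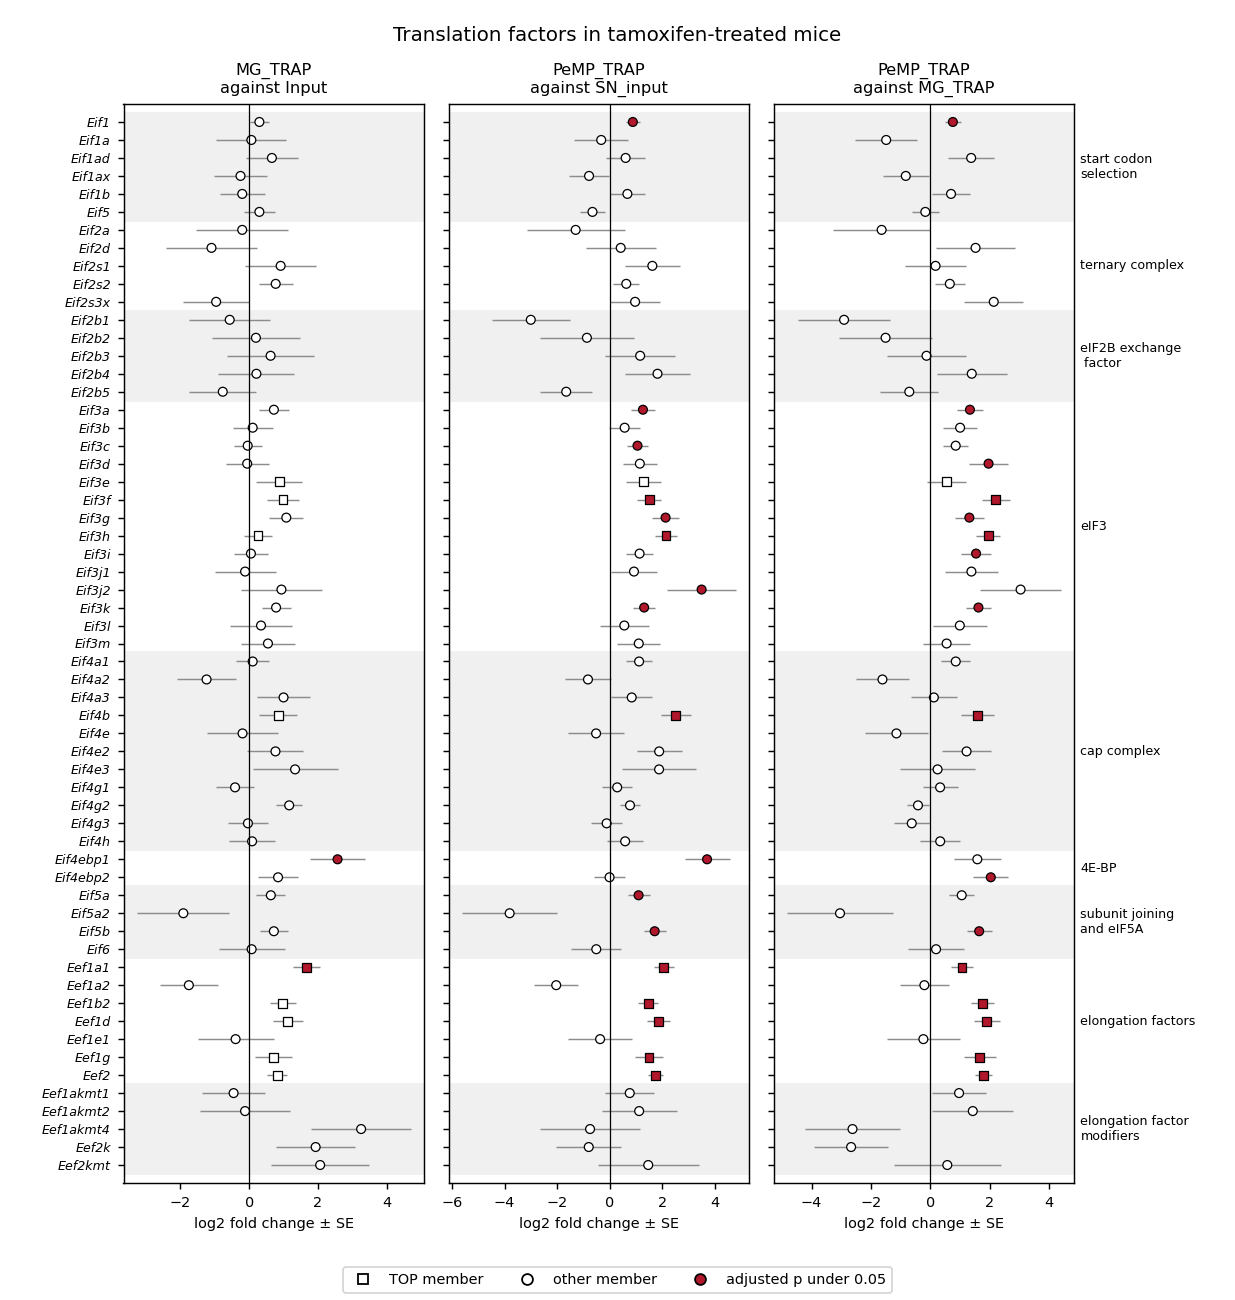
Log2 fold change of each factor tested, ordered by role, in MG_TRAP against Input, PeMP_TRAP against SN_input and PeMP_TRAP against MG_TRAP of tamoxifen mice. Filled symbols mark an adjusted p under 0.05. The eIF3 genes and TOP members lie on the positive side in both comparisons with PeMP_TRAP (13 of 14 eIF3 genes against MG_TRAP with DESeq2's size factors or total counts), where 17 and 16 factors passed.

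A test of whether the enrichment over the own input differed between PeMP_TRAP and MG_TRAP found 1 factor, Eif3h, at 1.88 ± 0.57 (adjusted p = 0.0260), where 0.388% of genes were higher and 10.9% lower. Its fold change was 2.14 in the synaptosome preparation and 0.26 in the homogenate. The call was lost without G, I, J or K, and with the letter as a replicate block. With Eif3h, 3 of the 59 factors were higher and none lower at an unadjusted p under 0.05, DESeq2 called 2 higher and none lower, and limma voom none higher and 5 lower. In the fit as reported the others, Eif4b and Eif4ebp1 among them, were not shown to differ, whereas the second set alone gave calls in both directions.

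In control mice, where no tamoxifen was given to activate the Cre, edgeR's quasi-likelihood test called no factor in any of the 3 fraction comparisons run. At an unadjusted p under 0.05 none were higher and 2 lower between MG_TRAP and Input, 2 higher and 5 lower between PeMP_TRAP and SN_input, and none higher and 1 lower between SN_input and Input. DESeq2 called 2 higher and 2 lower between PeMP_TRAP and SN_input and none in the others, and limma voom called none. Shares of all genes are not given for these unadjusted and alternative counts, so they stand without a background. In the fit as reported 0.0135% of all genes rose between MG_TRAP and Input (0.0686% of abundant genes) and 0% in the others. The TOP members had medians of -0.09 for MG_TRAP against Input and 0.31 for PeMP_TRAP against SN_input, and Eef2 in control PeMP_TRAP had 9.05, 7.43 and 9.13 against 9.34, 8.16 and 8.48 in SN_input.

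Between tamoxifen and control mice of the first set, no factor was called in MG_TRAP, Input or SN_input, where 0% of genes were called in either direction. In MG_TRAP 4 were higher and 2 lower at an unadjusted p under 0.05, DESeq2 called 3 higher and none lower (3.05% and 2.61% of all genes), and limma voom called 2 higher and 1 lower (3.64% and 4.47% of all genes). In Input none were past an unadjusted p of 0.05, in SN_input 1 was lower, and the other tools called none. In PeMP_TRAP 6 factors were higher and 1 lower, where 5.56% of genes were called in each direction (9.13% of abundant genes higher and 9.88% lower). DESeq2 called 16 higher and 2 lower (13% and 14.6% of all genes), limma voom 4 higher and 1 lower, and molecule equivalents gave 14 higher and 1 lower. For limma voom and molecule equivalents the shares of all genes are not given here, so those counts stand without a background. Markers of other cells moved with this contrast: neuronal markers summed to 3938 to 9372 CPM in the controls and 721 to 3686 CPM in tamoxifen mice, those of astrocytes (6 genes) to 3494 to 4317 CPM and 520 to 3050 CPM, those of oligodendrocytes to 4525 to 13347 CPM and 671 to 2887 CPM, and those of endothelium (5 genes) to 204 to 2291 CPM and 19.3 to 348 CPM. Of these, 2 of 8, 1 of 6, 2 of 6 and 1 of 5 genes were called lower, and 5 of 8 microglial markers were called higher. Plasma and B cell markers (5 genes) summed to 1.95 to 219 CPM in the controls and 119 to 3408 CPM in tamoxifen mice, and 2 of the 4 tested were called higher. Their part in the values of the factors was not tested. The control PeMP_TRAP libraries held 60350 to 86710 molecule equivalents and detected 9415 to 10454 genes. Those of tamoxifen mice in this set held 134600 to 233400 and detected 11694 to 13096. Factors at 0 reads numbered 9 to 11 in the controls and 5 in tamoxifen mice. The part of this difference in the calls was not tested either. Eif3f had 6.55, 2.82 and 1.49 in the controls and 9.37, 9.61 and 9.70 in tamoxifen mice, a difference of 3.97 ± 1.10 (adjusted p = 0.0206). Eef1d had 4.11, 5.97 and -0.15 against 9.05, 7.90 and 9.07, a difference of 3.62 ± 1.16 (adjusted p = 0.0379).

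The others called higher in PeMP_TRAP of tamoxifen mice were Eif4a3, at 4.77 ± 1.52, Eif2s2, at 4.19 ± 1.27, Eef1e1 and Eef2kmt. Eef1e1 was at 0 reads and Eef2kmt at no more than 1 read in each control library, so their fitted values are no bound and are not given. Eif2b5, the catalytic subunit of eIF2B, had 8.87, 7.85 and 9.51 in the controls and -0.29, 2.18 and 6.06 in tamoxifen mice, a difference of -4.66 ± 1.36 (adjusted p = 0.0261). These calls moved with single libraries: without C 1 factor was higher, without F 1, without E 2, and without A, C, D or E Eif2b5 was no longer called.

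The ratio of related factors within a library does not depend on scaling between libraries. For 11 pairs, 39 exact two-sided permutation tests of the log2 ratio between 2 fractions, with fraction labels permuted within sets, gave 17 past an adjusted p of 0.05. The smallest p the 5040 arrangements allow is 0.000397, and in the first set alone none could pass, since its smallest p is 0.1.

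The balance of the eEF1A forms differed between each pull-down and its input. The log2 ratio of Eef1a1 to Eef1a2 was 3.03 ± 2.7 (SD, n = 8) in Input and 6.57 ± 2.57 in MG_TRAP, a difference of 3.54 that had the same sign in 8 of 8 letters (adjusted p = 0.00258, exact permutation test). Within sets it ran from -1.14 to 1.74 in Input and 2.20 to 6.59 in MG_TRAP of the first, and from 4.28 to 5.15 and 7.34 to 9.42 in the second, without overlap. Between PeMP_TRAP and SN_input it differed by 5.49 (adjusted p = 0.00387, exact permutation test), also in 8 of 8 letters. Neither gene's own fall or rise is shown by a ratio.

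The helicases eIF4A1 and eIF4A2, close copies with different tissue preferences, had a log2 ratio of Eif4a1 to Eif4a2 of -1.23 ± 0.94 in Input and 0.24 ± 0.81 in MG_TRAP, a difference of 1.47 (n = 8, adjusted p = 0.00258, exact permutation test). It ran from -2.92 to -1.46 against -1.38 to 1.26 in the first set and from -0.74 to -0.50 against 0.23 to 0.85 in the second. The ratio was also higher in SN_input than in Input, by 1.84 (adjusted p = 0.00387, exact permutation test). The ratio of Eif5a to Eif5a2, the rarer form, was 4.52 higher in MG_TRAP than in Input (adjusted p = 0.00258, exact permutation test), where 14 of the 16 libraries had reads of Eif5a2.

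The balance of the 4E-BP genes differed one way in the pull-down and the other way in the synaptosome preparation. The log2 ratio of Eif4ebp1 to Eif4ebp2 was -1.55 ± 1.05 in Input and 0.29 ± 1.17 in MG_TRAP (n = 8), higher by 1.84 (adjusted p = 0.00516, exact permutation test, 7 of 8 letters). In SN_input it was -4.53 ± 1.17, lower than in Input by 2.98 on the log2 scale in 8 of 8 letters (adjusted p = 0.00258, exact permutation test), and PeMP_TRAP lay 3.84 above SN_input (adjusted p = 0.0246, exact permutation test). Eef2 to Eef2k was lower in MG_TRAP than in Input, at 3.39 ± 0.67 against 4.70 ± 0.52 (n = 8, adjusted p = 0.00258, exact permutation test). In PeMP_TRAP it lay 8.12 above MG_TRAP in 8 of 8 letters (adjusted p = 0.00258, exact permutation test). There Eef2k was read in 2 of the 5 PeMP_TRAP libraries of the second set, so the size of that difference depends on the 0.5 added. The ratio of Eif4g1 to Eif4g2, a relative that lacks the eIF4E binding site, differed by -1.5 between MG_TRAP and Input (adjusted p = 0.0122, exact permutation test). The ratio of Eif4g1 to Eif4g3 did not pass in any of its 4 comparisons.

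**Figure D4:**
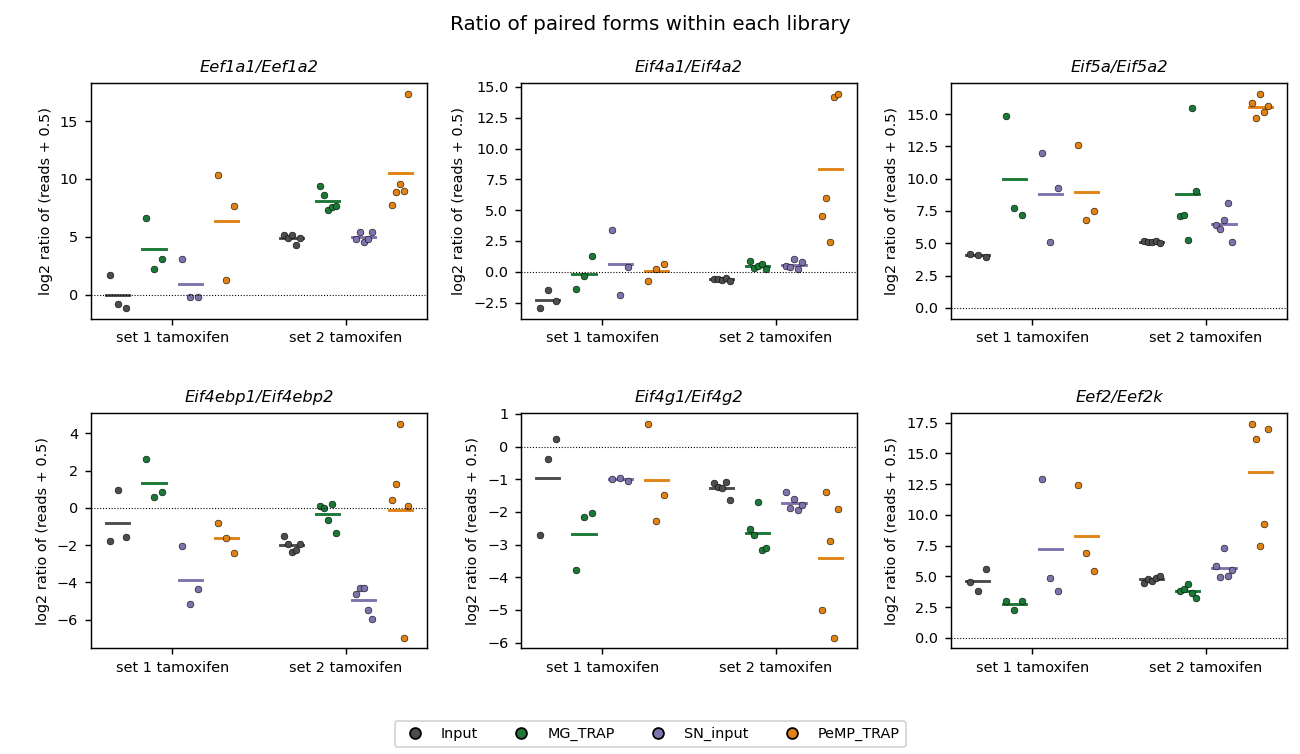
Log2 ratio of the reads of 2 related factors in each tamoxifen library, by fraction and set, with 0.5 added to each count. Eef1a1 over Eef1a2 lies higher in MG_TRAP than in Input in both sets without overlap, and Eif4ebp1 over Eif4ebp2 has its lowest mean in SN_input. A PeMP_TRAP library of the second set, at -6.98, lies below the lowest SN_input library, at -5.99.

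Of 45 other genes of translation control, a list of kinases, mTOR components, LARP1, release factors and mitochondrial factors, all were tested. Between PeMP_TRAP and SN_input 3 rose, namely Pabpc1, the poly(A)-binding protein and itself a TOP mRNA, by 2.23 ± 0.41, Larp1 by 2.22 ± 0.62 and the mTORC1 subunit Rptor by 2.98 ± 0.86, and 4 fell, where 6.15% of all genes rose and 26.1% fell. Against MG_TRAP the same 3 genes and Tpt1, another TOP mRNA, rose and 5 fell, where 3.17% of all genes rose and 22% fell. The genes that fell in both, Dhx29, Eif4enif1, Mlst8 and Ppp1r15a, had average log2 CPM of 3.64, 4.49, 3.12 and 4.02, against 6.33 to 8.33 for Larp1, Rptor, Pabpc1 and Tpt1. In the first set alone Pabpc1, Larp1 and Rptor were at 3.0, 3.28 and 5.69 against SN_input, of which Rptor passed (adjusted p = 0.0270, edgeR's quasi-likelihood test), and at 2.11, 1.91 and 3.61 against MG_TRAP, where they and Tpt1 (0.97) did not pass. Between MG_TRAP and Input 2 rose, Pabpc1 by 1.86 and Cyfip1 by 2.89, and none fell, where 4.67% of all genes rose and 2.15% fell, and between SN_input and Input edgeR called none (1 higher and none lower at an unadjusted p under 0.05).

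For MG_TRAP against Input and for SN_input against Input, a test of the difference between sets by edgeR called no factor, where 0% of genes were called. None passed an unadjusted p under 0.05, and DESeq2 and limma voom called none. For PeMP_TRAP against SN_input 7 factors were lower in the second set, Eef1akmt4, Eef2kmt, Eif2a, Eif2b1, Eif2b2, Eif5 and Eif5a2, where 14.9% of genes were lower and 0.189% higher. For PeMP_TRAP against MG_TRAP the same genes without Eif5 were lower, where the shares were 14.8% and 0.423%. Except for Eif5 and for Eif2a, which was read in 1 of 5, all of these were at 0 reads in every PeMP_TRAP library of the second set. Their levels in the other fractions lay below 3 molecule equivalents of a single such library. What 0 reads in all 5 libraries together show was not tested. No TOP member and no eIF3 gene was among them.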

How the data were processed

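The authors deposited HTSeq read counts per Ensembl gene for each of the 44 libraries, from cDNA amplified by SMART-Seq v4 and libraries made with NEBNext Ultra II, per the labels' protocols. Per the submitters' processing notes FastQC 0.11.7, Trimmomatic 0.38, Bowtie2 2.3.5, STAR 2.7.0d, HTSeq 0.9.1 and edgeR were used. The genome build and the HTSeq options are not given in the sources used here. The identifiers listed in both sets (50714) were analysed, and all are in GENCODE M21, which gave symbols, exon lengths and biotypes. Per library, 3 reads were worth 0.0847 to 4.05 CPM, which covers counting error only. A deposited table of log2 values was not used. Counts were fitted with edgeR 4.0.16 in R 4.3.3 (TMM, filterByExpr with a minimum count of 10, quasi-likelihood test, Benjamini-Hochberg adjustment over all genes): the 32 tamoxifen libraries with set as a covariate, and the 24 libraries of the first set for comparisons with controls. The test was checked on simulated data. Values per library are log2 CPM (TMM over all 44, prior count 2). Ratios of related genes used counts plus 0.5 and exact permutation within sets, for pairs with at least 10 summed reads in every library. Molecule equivalents were the draws from the mean profile of the other libraries that give the number of genes detected. The members, their roles, the TOP list and the other lists were chosen with earlier results of these data known. Named were up to 8 members per direction with the largest change past the threshold, plus a fixed panel by role, and other members where a count or a library called for it. Alternatives were DESeq2 1.42.0 and its size factors, total counts, no filter (a summed count of at least 1), limma 3.58.1 voom, each set alone, each letter left out, a replicate block, and, added after seeing the data, molecule equivalents and abundant genes as a background.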

Additional observations from a re-analysis of the deposited data

Results flagged for a closer look

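In the groups of 5 libraries of the second set, 131 sets of values were searched for a highest or lowest library far from the others by Dixon's criterion, and 12 were found, where chance gives about 1 in 20. In MG_TRAP these were Eif2a in replicate J at a log2 CPM of -2.80, which is 0 reads, Eif2b1 and Eif2b2 in K at 2.10 and 3.96, both low, Eif3a in K at 7.58, high, and Eif3c in J at 6.36, low. In PeMP_TRAP they were Eef1e1 in K at 4.20, Eif2a in J at -2.39 and Eif3j2 in I at 5.49, all high, and Eif4a3 and Eif4ebp1 in J at -2.39 and 1.30, both low. In SN_input Eef2kmt was low in H at 1.89. The share of reads on factors in Input was highest in K, at 1.07%. Eef1e1 and Eif2a had reads in 1 of 5 PeMP_TRAP libraries, so the criterion had to find them and the rate that chance gives does not apply. The value of Eif3j2 in I decides its call between PeMP_TRAP and SN_input, and the low Eif4ebp1 in J stood against 7.03 to 8.24 in the other libraries of that group, a spread that leaves its call in place.

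The enrichment of Eif3h over its own input was 1.88 log2 units larger in PeMP_TRAP than in MG_TRAP (adjusted p = 0.0260, edgeR's quasi-likelihood test), a call lost with a replicate block. Fold changes of PeMP_TRAP against MG_TRAP differed between the sets, second minus first, for Eef1akmt4 (-8.63), Eef2kmt (-13.43), Eif2a (-10.16), Eif2b1 (-11.64), Eif2b2 (-12.46) and Eif5a2 (-9.97). Fold changes of PeMP_TRAP against SN_input differed for Eef1akmt4 (-12.66), Eef2kmt (-14.09), Eif2a (-12.52), Eif2b1 (-10.75), Eif2b2 (-14.84), Eif5a2 (-10.39) and Eif5 (-2.49). Except for Eif5, these genes had 0 reads in at least 4 of the 5 PeMP_TRAP libraries of the second set, so their fitted differences depend on the prior count and are no bound. The levels of the 5 genes at 0 in all of them (all but Eif2a) lay below 3 molecule equivalents in SN_input and MG_TRAP. That bound holds for a single PeMP_TRAP library, where 0 reads could not show a lower level. What 0 reads in all 5 libraries together show was not tested.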

How the results depend on the processing

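Counts of factors called are given as higher and lower. In this section they stand without the shares of all genes in the same fits. They therefore show how the calls move and give no result about the factors as a group. MG_TRAP against Input (2 and 0 in the fit as reported) gave 1 and 1 with DESeq2, 1 higher with its size factors, without filter and with total counts, 0 in the first set alone and with limma voom, and 11 and 3 with molecule equivalents. PeMP_TRAP against SN_input (17 and 0) gave 4 lower with DESeq2, 2 lower with its size factors, 3 and 15 with limma voom, 9 and 5 with molecule equivalents, 9 higher without filter, 0 in the first set alone and 7 lower in the second. PeMP_TRAP against MG_TRAP (16 and 0) gave 10 and 6 with DESeq2, 8 and 2 with its size factors, 6 and 19 with limma voom, 1 and 12 with molecule equivalents, 5 higher without filter, 5 and 2 with total counts, 0 in the first set alone and 9 lower in the second. SN_input against Input (2 and 0) gave 1 and 1 with DESeq2, 1 higher with its size factors, 0 higher with limma voom, without filter and in the first set alone, 0 and 1 with total counts, 6 lower with molecule equivalents and 5 higher in the second set. The difference of enrichment (1 and 0) gave 2 higher with DESeq2 and with its size factors, 0 in the first set alone, with molecule equivalents and without filter, 0 and 5 with limma voom, and 3 and 7 in the second set. Second against first set in Input (3 and 1) gave 5 and 2 with molecule equivalents, 1 and 0 without filter, 2 lower with DESeq2 and 0 lower with limma voom and total counts. Set differences of PeMP_TRAP against MG_TRAP (0 and 6) gave 1 higher without filter and 1 lower with molecule equivalents, and against SN_input (0 and 7) 1 higher with DESeq2 and with its size factors, 17 lower with limma voom and 2 lower with molecule equivalents. In the controls DESeq2 gave 2 and 2 for PeMP_TRAP against SN_input. Tamoxifen against control gave 3 higher with DESeq2 and 2 and 1 with limma voom in MG_TRAP, and 16 and 2 with DESeq2 and 14 higher with molecule equivalents in PeMP_TRAP (6 and 1). Related-gene ratios (17) gave 0 in the first set alone. Molecule equivalents turned Eef1a1 (-0.23) and Eif1 (-0.50) negative in PeMP_TRAP against MG_TRAP, and leaving out I turned Eif3j2 in PeMP_TRAP against SN_input (-0.79 to 3.97 over the letters left out). The cause of these moves was not tested.

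Leaving out 1 letter at a time gave 1 to 2 higher for MG_TRAP against Input and for SN_input against Input, 12 to 19 higher and 0 to 3 lower for PeMP_TRAP against SN_input, 9 (without G) to 15 higher and 0 to 3 lower for PeMP_TRAP against MG_TRAP, 0 to 1 in each direction for the difference of enrichment, and 15 to 22 for the ratios. It gave 2 to 4 higher and 0 to 2 lower between sets in Input, 5 to 7 lower and 6 to 8 lower (0 to 1 higher) for the set differences against MG_TRAP and SN_input, and 1 (without C) to 9 higher and 0 to 1 lower for tamoxifen against control in PeMP_TRAP.

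The labels do not say that libraries with the same letter share an animal, so the letter was no block in the fit as reported. Of 66 pairs of libraries that share a letter, 26 had a correlation of deviations over 0.1 (-0.204 to 0.501, median 0.0777). In the first set 26 of 36 correlated best with their own letter and in the second 10 of 30, a hint of pairing in the first set from the data, not the design. With the replicate block 1 factor was higher for MG_TRAP against Input, 14 higher and 1 lower for PeMP_TRAP against SN_input, 12 higher and 1 lower for PeMP_TRAP against MG_TRAP, 2 higher for SN_input against Input and 0 for the difference of enrichment, where Eif3h was no longer called.

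Of the alternative values for single factors called, 813 kept direction and call, 355 kept direction only and 3 reversed. Few molecules per PeMP_TRAP library of the second set limit what can be said of factors below 145.8 CPM there.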
